A study of Mus musculus with 2 samples.

Results

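Cells of 2-week-old mouse islets in which Ppy and Pyy were the leading hormone genes were selected from single cell RNA sequencing of WT and Npc1-/- islets. Barcodes entered with over 1000 genes and a total below 50000 UMIs (unique molecular identifiers, each of which counts 1 captured molecule), when mitochondrial genes gave less than 10% and haemoglobin genes no more than 0.1% of that total. It was then selected when the sum of Ppy and Pyy was larger than Ins1+Ins2, Gcg and Sst, reached 10% of the UMIs of the cell, and Ins1+Ins2 stayed under 10%. This gave 837 of the 8897 kept cells, 407 of 4628 in WT and 430 of 4269 in Npc1-/-. The selection used the measured levels of these genes, so Ppy, Pyy, Ins1, Ins2, Gcg and Sst are given below as a description of the selected cells. Because the cells turned out to be of several kinds, they are called Ppy+Pyy-led cells here and not PP cells.

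Each genotype had 1 droplet library (10x Genomics, 3′ counts), made from the islets of 3 pooled female mice. The mice were on a C57BL/6J background, WT and Npc1-/- mice were littermates from matings of heterozygotes, and the loss of Npc1 affected every cell of the animal. The WT library held 114324626 UMIs in 8569 barcodes and the Npc1-/- library 127122035 UMIs in 7646 barcodes. The 407 WT cells selected had 8034638 UMIs together and the 430 Npc1-/- cells 9009417, with a median of 18902 and 19349 UMIs per cell, so the depth per cell was close in both. Of the kept cells, 3 barcodes occurred in both libraries, and none of these was a Ppy+Pyy-led cell. With 1 library per genotype there is no replicate check of any difference, no p-value is given, and the 95% intervals are exact intervals for counting error, without any spread between mice.

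Pancreatic polypeptide (Ppy) and peptide YY (Pyy) belong to a family of short amidated peptides that share a hairpin fold and act on the Y receptors, through which they reduce food intake and the secretion of the gut and exocrine pancreas. Pancreatic polypeptide is the hormone of the PP cells of the islet, which are most frequent in the part of the pancreas near the duodenum. Peptide YY is known from the L cells of the gut, and in the islets of young rodents it is also made by endocrine cells that make other hormones. NPC1 is a membrane protein of late endosomes and lysosomes which exports cholesterol from them.

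The genes of the 2 peptides are neighbours on chromosome 11, on the minus strand and with 5356 bases between them. The 250 bases before the start of each gene are shown from RefSeq sequence (GRCm38.p6, minus strand, Ppy at chr11:102101320-102101569 and Pyy at chr11:102107833-102108082), because these genes define the cells and were read out together in them. Capitals mark the letters TATAA, the core of a TATA box.
Ppy: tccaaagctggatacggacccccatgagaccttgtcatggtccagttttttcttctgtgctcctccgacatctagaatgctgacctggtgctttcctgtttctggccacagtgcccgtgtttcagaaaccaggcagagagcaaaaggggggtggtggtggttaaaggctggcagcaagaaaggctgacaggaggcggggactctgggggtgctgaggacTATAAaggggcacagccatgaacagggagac
Pyy: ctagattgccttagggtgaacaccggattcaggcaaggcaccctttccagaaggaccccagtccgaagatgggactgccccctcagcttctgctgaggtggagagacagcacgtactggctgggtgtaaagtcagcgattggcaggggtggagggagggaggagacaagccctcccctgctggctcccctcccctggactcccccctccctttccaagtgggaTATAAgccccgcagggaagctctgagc
TATAA began 31 bases before the start of Ppy and 27 bases before that of Pyy. On the forward strand and in the last 45 bases before the start, TATAA stood in 1509 of 32851 mouse promoters (4.59%), and it stood anywhere on either strand in 22.8%. TAAT (or ATTA on the other strand), the core letters bound by homeodomain factors, was found in neither window and in 54.9% of all promoters.

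Together Ppy and Pyy made up between 10.4% and 61.9% of the UMIs of a selected WT cell (median 35.7%) and between 10.3% and 63.2% of those of a selected Npc1-/- cell (median 25.4%). Close to the limit of 10%, the highest share among cells led by Ppy and Pyy but left out was 9.79% in WT and 9.93% in Npc1-/-. Between 10% and 12% lay 13 WT and 18 Npc1-/- cells, and 9 and 13 cells led by these genes lay between 8% and 10%. The limit on insulin left out 4 WT and 12 Npc1-/- cells, and the highest Ins1+Ins2 share among selected cells was 9.35% and 9.24%. The boundary with somatostatin cells was less clear than these limits. In 36 WT and 39 Npc1-/- cells Sst came within 2 percentage points of Ppy+Pyy, and in 38 and 33 cells on the other side Ppy+Pyy came as close to a leading Sst. Almost all cells led by Sst, 182 of 189 in WT and 138 of 141 in Npc1-/-, had 5% or more of their UMIs in Ppy and Pyy.

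The Ppy+Pyy-led cells fell into 4 groups by the other hormones they held, with a limit of 1% of UMIs for each. The first had none of Sst, Gcg or Iapp (the gene of amylin, the peptide co-secreted with insulin) at that level and is called Ppy+Pyy alone. The others also held Sst, or Gcg, or Iapp without the former pair. In WT, 184 cells (45.2%, 40.3 to 50.2) had Ppy+Pyy alone, 144 (35.4%, 30.7 to 40.2) also Sst, 45 (11.1%, 8.18 to 14.5) also Gcg and 34 (8.35%, 5.85 to 11.5) also Iapp. In Npc1-/-, 136 cells (31.6%, 27.3 to 36.3) had Ppy+Pyy alone, 161 (37.4%, 32.9 to 42.2) also Sst, 53 (12.3%, 9.37 to 15.8) also Gcg and 80 (18.6%, 15 to 22.6) also Iapp. Cells with both Sst and Gcg at 1% or more were rare, 3 in WT and 5 in Npc1-/-, and were counted with Sst.

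**Figure D1:**
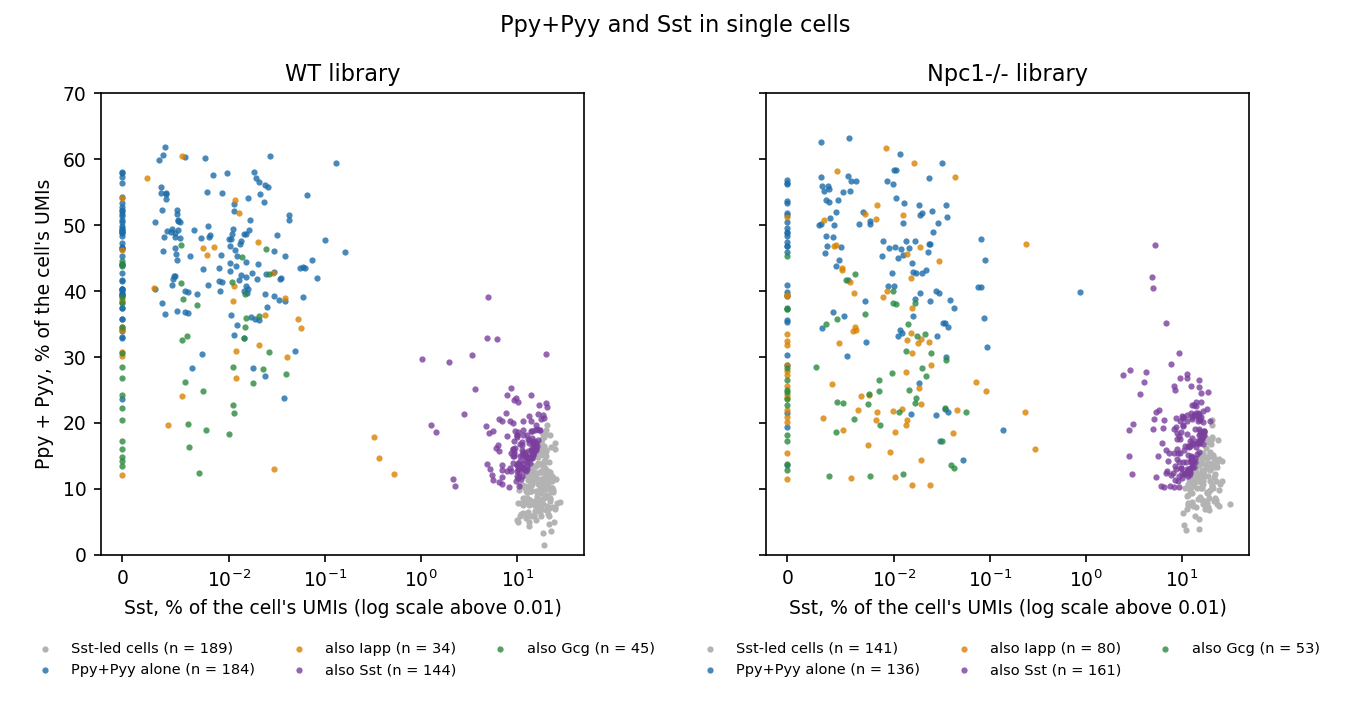
Each point is 1 cell of the WT (left) or Npc1-/- library (right), with the Sst share of its UMIs on the x axis (log scale above 0.01%) and the Ppy+Pyy share on the y axis; colours give the groups by other hormones, and grey the cells led by Sst. Cells with Ppy+Pyy alone lie above and to the left, with almost no Sst, and the cells that also held Sst join the Sst-led cells without a gap.

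Few cells lay near the limit of 1% for Sst, more for Gcg in WT, and many for Iapp. Between 0.5% and 2% lay 5 WT and 1 Npc1-/- cells for Sst, 20 and 9 for Gcg, but 99 and 118 for Iapp. Within the cells that were low in both Sst and Gcg, 29 of 218 in WT and 49 of 216 in Npc1-/- had an Iapp share in this range. The group with Iapp is thus bounded by a limit with many cells near it, and whether it is a separate type was not tested. It also had the highest doublet scores (Scrublet, median 0.0908 in WT and 0.0643 in Npc1-/-), against 0.0207 and 0.0236 in cells with Ppy+Pyy alone, 0.0183 and 0.0193 with Sst and 0.0342 and 0.0579 with Gcg. At the expected doublet rate, 9 of the 34 WT and 6 of the 80 Npc1-/- cells with Iapp were called doublets, against 4 of 184 and 5 of 136 with Ppy+Pyy alone, 14 of 144 and 12 of 161 with Sst and 0 of 45 and 1 of 53 with Gcg. The part of doublets in this group was not tested.

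The share of Ppy+Pyy-led cells among all kept cells was 8.79% (7.99 to 9.65) in WT and 10.1% (9.19 to 11) in Npc1-/-, a ratio of 1.15 whose interval, 0.998 to 1.31, included 1. Their make-up differed more than their number. Cells with Ppy+Pyy alone were a smaller part of the selected cells in Npc1-/- (ratio 0.70, 0.556 to 0.878), and cells also rich in Iapp a larger one (ratio 2.23, 1.47 to 3.43). The intervals for cells with Sst (ratio 1.06, 0.840 to 1.33) and with Gcg (ratio 1.11, 0.735 to 1.70) included 1. Over all kept cells, those with Ppy+Pyy alone were 3.98% and 3.19% (ratio 0.80, 0.637 to 1.01, an interval that included 1), and those with Iapp 0.735% and 1.87% (ratio 2.55, 1.69 to 3.93). How the ratio for Iapp moves with another limit than 1% was not tested.

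**Figure D2:**
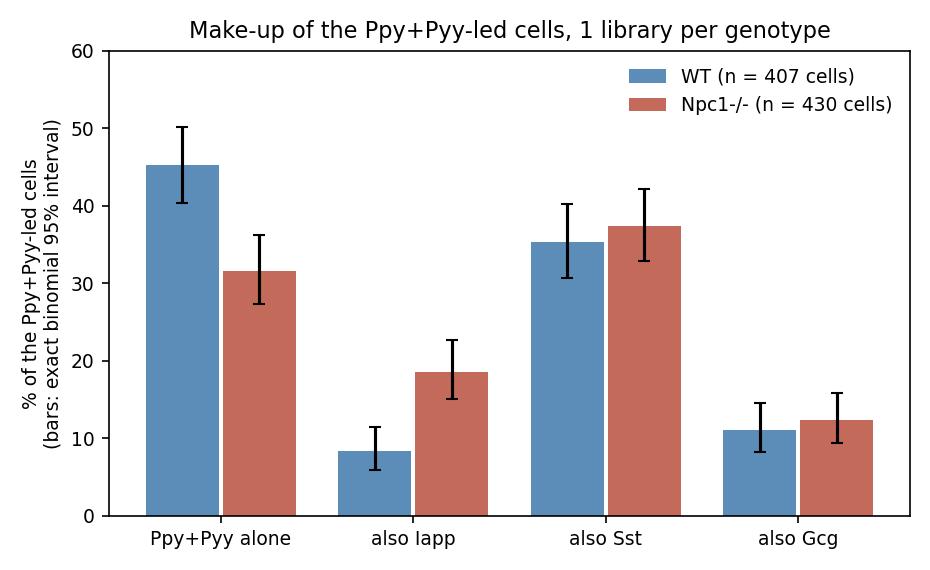
Bars give the percentage of Ppy+Pyy-led cells in each group by other hormones, in the WT library (407 cells) and the Npc1-/- library (430 cells), and error bars the exact 95% binomial interval for counting error. Ppy+Pyy alone is lower and the Iapp group higher in Npc1-/-, and the intervals of the other groups overlap.

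Ppy and Pyy were present in similar amounts over all selected cells, and their balance shifted between the groups. In cells with Ppy+Pyy alone, Ppy amounted to 24.5% (WT) and 25.8% (Npc1-/-) of all UMIs, and Pyy 22.1% and 20.8%. In cells that also held Sst, Ppy took 7.11% and 6.83%, Pyy 10.8% and 12%, and Sst itself 10.7% and 11%. In cells led by Sst, Pyy was still at 8.39% and 9.28% and Ppy at 2.70% and 2.48%. Accordingly Ppy exceeded Pyy in 64.1% of WT and 73.5% of Npc1-/- cells with Ppy+Pyy alone, in 33.3% and 21.1% of cells with Sst, and in 6.88% and 5.67% of Sst-led cells. In cells with Gcg, where glucagon took 8.72% and 10.4% of UMIs, Ppy (14.7% and 13.1%) and Pyy (15.9% and 14.2%) lay in between. The Iapp group had Ppy at 20.8% and 16.3%, Pyy at 18.6% and 16.6%, and Iapp at 3.43% and 4.05%, against 4.5% and 4.42% in cells led by insulin. Its median cell had 2.54% and 3.24% Iapp, against 4.46% and 4.38% in Ins-led cells. These shares are of all UMIs, of which Ins1+Ins2 took a median of 53.2% and 50.9% in Ins-led cells. Free RNA was far below these levels. In endothelial cells (437 and 450 cells with 20 or more UMIs of 6 endothelial genes and no hormone at 10%), Ppy took 0.061% and 0.039% of UMIs, Pyy 0.121% and 0.047%, Sst 0.089% and 0.015%, Gcg 0.132% and 0.080%, and Iapp 0.136% and 0.080%.

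The selected cells were described by 3 markers of PP cells that the selection did not use. The markers were listed with earlier results of these data known, so they are not an independent check. Here and below, the level of a gene is its UMI sum in a group, per library, for each 1000000 UMIs outside the 8 hormone genes Ins1, Ins2, Gcg, Sst, Ppy, Pyy, Ghrl and Iapp (CPM). Tspan8, a tetraspanin of the cell membrane, stood at 1384 and 1122 CPM in the WT and the Npc1-/- library. Cells led by Gcg had 134 and 145 CPM of it and cells led by Ins1+Ins2 123 and 156 CPM, but cells led by Sst had 953 and 997 CPM. Folr1, a folate receptor, had 401 and 331 CPM in Ppy+Pyy-led, 296 and 319 CPM in Sst-led, 42.8 and 48.2 CPM in Gcg-led and 70.7 and 66.2 CPM in Ins-led cells. Both genes thus separated Ppy+Pyy-led cells from glucagon and insulin cells, but hardly from somatostatin cells. Gc, which encodes the vitamin D-binding protein and is also known in glucagon cells, was highest in cells with Ppy+Pyy alone (508 and 428 CPM), and stood at 331 and 231 CPM in all selected cells, at 206 and 173 CPM in Gcg-led, 85.6 and 109 CPM in Sst-led and 9.21 and 8.57 CPM in Ins-led cells.

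At 1 fixed depth of 5000 UMIs per cell, Ppy+Pyy-led cells with Tspan8 made up 94.0% in WT and 91.1% in Npc1-/- (7 and 12 shallower cells left out), against 4.05% and 5.98% of endothelial cells, 26.2% and 26.1% of Gcg-led, 16.9% and 23.8% of Ins-led and 90.1% and 92.8% of Sst-led cells. Without thinning the shares were 98.8% and 96.3%, against 7.78% and 10.2%, at a median of 7871 and 10331 UMIs in the endothelial cells. Other genes that islet work has linked to PP cells did not single out the selected cells. Etv1, an ETS family transcription factor, was at 398 and 372 CPM but at 578 and 480 CPM in Gcg-led cells, and Meis2, a homeodomain factor, at 401 and 440 CPM but at 605 and 582 CPM in Sst-led cells. Fev, the ETS factor of serotonin-like endocrine progenitors, stood at 61.5 and 71.5 CPM in Ppy+Pyy-led cells, 57.4 and 57.4 CPM in Gcg-led and 3.55 and 12.5 CPM in Ins-led cells.

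Few genes set all Ppy+Pyy-led cells apart from the other endocrine classes. Among 6708 genes with 20 CPM or more, 1 (0.0149%) was more than 2-fold higher than in each of the 3 other endocrine classes in both libraries, and 0 (0%) were more than 2-fold lower than in each. These comparisons rest on the cells that the hormone levels chose and have no test.

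The genes next in order of these ratios were of several kinds. Gsn (gelsolin, which severs actin filaments) was higher than in the next class by 1.62 in WT and 0.90 in Npc1-/- on the log2 scale, relative to the median gene, and Cd9, another tetraspanin, by 1.36 and 0.86. Rcn3, a calcium-binding protein of the endoplasmic reticulum (ER), followed with 1.02 and 0.78, Kdelr3, a receptor that returns proteins to the ER, with 0.52 and 0.85, and Uchl1, a neuronal deubiquitinase, with 0.73 and 0.52. Maged2, Bik (a pro-apoptotic protein of the BCL2 family), Lrpprc (which stabilises mitochondrial transcripts), Plk2, Sdc4 (syndecan-4), Prdx1 (peroxiredoxin-1), Tle1, Inafm1 and Lgals3bp were higher by 0.29 to 0.67. At the lower end the differences were smaller. Mrln stood at 160 and 176 CPM and was lower than in the lowest other class by 0.58 and 0.44, and Ppm1l, at 60.2 and 64.1 CPM, was lower by 0.47 and 0.49. Pak3, Rapgef4 (a cAMP sensor of exocytosis, at 52.5 and 58.2 CPM), Picalm, Rnase4, Cyhr1, Nav1, Deptor (an inhibitor of mTOR) and Ddx17 were lower by 0.16 to 0.78.

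Cells with Ppy+Pyy alone stood further apart from the other classes. Of 6587 genes, 20 (0.304%) were more than 2-fold higher in them than in each of the 3 classes in both libraries. Among them were Cd9 with 346 CPM (WT) and 430 CPM (Npc1-/-) and log2 ratios over the next class of 2.09 and 1.85, Rcn3 with 276 and 209 CPM (1.72 and 1.69), Gsn with 120 and 90.2 CPM (2.23 and 1.62), and Gc with ratios of 1.22 and 1.23. Limch1, an actomyosin regulator, Uchl1, Kdelr3 and Ugt2b34, a glucuronosyltransferase, also passed 2-fold in both, with ratios of 1.03 to 1.68. Among the genes just under this limit were Maged2, Lrpprc, Csrp2, Btg2 and Klf2. For the same genes the ratios over the next class were smaller in the whole selection, which holds the cells with other hormones too.

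The cells with Sst resembled somatostatin cells in genes that the selection did not use. Compared with cells that had Ppy+Pyy alone, 247 of 7185 genes (3.44%) were more than 2-fold higher in both libraries and 144 (2%) more than 2-fold lower. Hhex (chr19:37434810-37440731, plus strand, build mm10), the homeodomain factor that somatostatin cells need, stood at 494 and 450 CPM in the WT and the Npc1-/- library, against 0.952 and 5.56 CPM in cells with Ppy+Pyy alone. Rbp4, the retinol carrier known from the same cells, reached 11169 and 10465 CPM against 416 and 411 CPM. Ly6h, a membrane-anchored modulator of nicotinic receptors, stood at 923 and 662 CPM against 5.24 and 5.56 CPM. Cd24a, a cell surface glycoprotein, Cela1, an elastase, Fam159b, and Frzb, a secreted Wnt antagonist, were higher by 5.51 to 6.80 on the log2 scale. Ppp1r17, Dlk1 (an inhibitor of Notch signalling) and Mest, an imprinted gene, were near 0 in cells with Ppy+Pyy alone, at 1.24 CPM or less except Mest with 5.24 CPM in WT, and at 67.3 to 204 CPM in cells with Sst. Neurog3, the factor that starts endocrine differentiation, stood at 96.0 and 99.5 CPM in the cells with Sst and at 119 and 130 CPM in Sst-led cells. Ghsr, the ghrelin receptor, was at 30.5 and 32.2 CPM in cells with Sst and at 0 and 0.62 CPM in cells with Ppy+Pyy alone. In the opposite direction, Edn3 (endothelin-3), Ctxn2, Kctd12b, Cd9, Higd1a, Nap1l5 and Cadps, a priming factor of dense-core vesicles, were lower in cells with Sst by 2.78 to 4.11.

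At 5000 UMIs per cell, cells with Hhex made up 75.9% (WT) and 71.8% (Npc1-/-) of cells with Sst, and 0% and 0.75% of cells with Ppy+Pyy alone. Since Hhex is also made by endothelial cells, where its share was 23.8% and 27.8%, the endothelial cells do not serve as a background for this gene. By Hhex and Rbp4 the cells with Sst lay with the Sst-led cells, and the data go against the label of PP cells for them.

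The cells with Iapp differed from cells with Ppy+Pyy alone in several genes known from beta and somatostatin cells. Against cells with Ppy+Pyy alone, 65 of 6880 genes (0.945%) were more than 2-fold higher in both libraries and 45 (0.654%) more than 2-fold lower. Of 6 tested genes of the beta cell list, 2 were higher (Pdx1 and Ucn3) and 0 lower. The 11 genes of this list outside the hormones summed to 832 and 998 CPM, against 463 and 414 CPM in cells with Ppy+Pyy alone, 1244 and 1201 CPM in Gcg-led and 5845 and 4842 CPM in Ins-led cells. Pdx1, the homeodomain factor of beta and somatostatin cells, stood at 211 and 187 CPM in the WT and the Npc1-/- library against 43.3 and 36.4 CPM, next to 154 and 149 CPM in Sst-led cells. Bace2, a protease of the beta cell surface, had 246 and 241 CPM against 30.9 and 34.6 CPM, and Enho, the gene of the peptide adropin, 203 and 256 CPM, higher by 3.31 and 3.27 on the log2 scale. Frzb, Cela1, Cd24a and Fam159b, which also marked the cells with Sst, were higher here by 3.28 to 4.35, and Sez6l, Ppp1r1a and Gpr45 by 1.98 to 3.22. Nkx6-1, a factor that beta cells require, was at 326 and 391 CPM, between the 224 and 241 CPM of cells with Ppy+Pyy alone and the 509 and 420 CPM of Ins-led cells. Mafa, a factor of mature beta cells, stood at 12.5 and 8.31 CPM, and Ucn3 (urocortin 3), a peptide of mature beta cells, at 22.6 and 22.2 CPM, against 468 and 419 CPM and 484 and 324 CPM in Ins-led cells. Ndst4, Ctxn2, Edn3, Sfrp5 (a secreted Wnt antagonist), Spon2 and Cd9 were lower than in cells with Ppy+Pyy alone by 1.32 to 2.07. Sparc, a matrix protein, was lower as well, but 5 cells held 90.2% of its UMIs in WT and 69.9% in Npc1-/-.

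The cells with Gcg had the factors of alpha cells. Against cells with Ppy+Pyy alone, 32 of 6789 genes (0.471%) were more than 2-fold higher in both libraries and 26 (0.383%) more than 2-fold lower. Irx1 and Irx2, homeodomain factors of alpha cells, had 106 and 82.0 CPM (WT and Npc1-/-) and 132 and 163 CPM, against 9.52 and 11.1 CPM and 40.9 and 34.6 CPM. Slc30a8, the zinc transporter of secretory granules, had 554 and 502 CPM against 87.1 and 55.0 CPM. Ttr (transthyretin), abundant in alpha cells, was at 9656 and 9543 CPM in cells with Gcg, at 3195 and 2342 CPM in cells with Ppy+Pyy alone and at 37192 and 32559 CPM in Gcg-led cells. Wnk3, Map3k15, Tmsb15b1 and Tmsb15b2 were also higher, of which the last pair are near-identical copies whose reads cannot be told apart with certainty. Pcsk1, the convertase that processes proinsulin, was at 20.1 and 29.7 CPM against 138 and 149 CPM, and Clu (clusterin), Hadh, Fxyd3, Fam46a, Limch1, S100a10, Crip1 and Nkx6-1 were lower too.

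**Figure D3:**
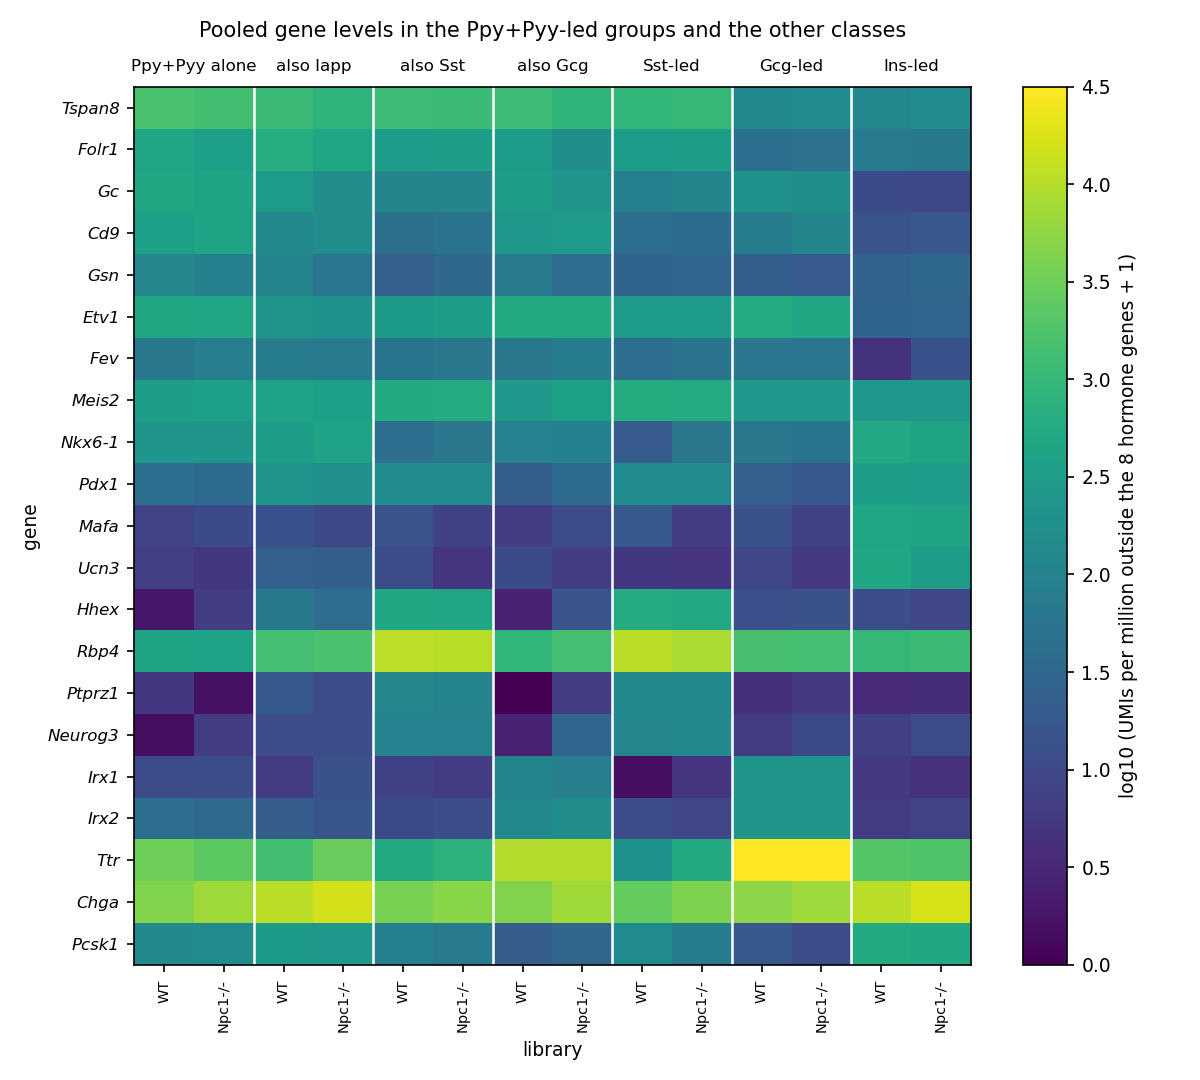
The heat map gives the level of 21 genes, as log10 of CPM outside the hormones plus 1, in the 4 groups of Ppy+Pyy-led cells and in Gcg-led, Sst-led and Ins-led cells, with WT and Npc1-/- side by side. Tspan8 and Folr1 are high in all 4 groups and in Sst-led cells, and Hhex is highest with Sst and in Sst-led cells.

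The selected cells had the common factors of islet endocrine cells, with Isl1 at 656 and 597 CPM in the WT and the Npc1-/- library, Pax6 at 326 and 349 CPM, Neurod1 at 178 and 179 CPM and Nkx2-2 at 115 and 124 CPM. Isl1 was at 509 and 451 CPM in cells with Ppy+Pyy alone and at 915 and 805 CPM in cells with Sst, next to 933 and 832 CPM in Sst-led cells. Among the receptors, the fatty acid receptors Ffar4 (123 and 117 CPM) and Ffar2 (117 and 104 CPM) had the most UMIs. Ffar1, another receptor of long-chain fatty acids, and Gpr119, a receptor of lipid amides, were at 74.7 and 80.3 CPM and at 58.1 and 55.0 CPM in cells with Ppy+Pyy alone, but at 13.1 and 9.55 CPM and at 10.6 and 7.54 CPM in cells with Sst. Ffar4 had the reverse order, with 80.0 and 66.1 CPM in the former and 197 and 190 CPM in the latter. Of the granins, the acidic proteins of the secretory granule, Chga was at 4753 and 8185 CPM, Scg2 at 3644 and 3345 CPM and Chgb at 3555 and 3942 CPM, with Chgb at 2243 and 2703 CPM in cells with Ppy+Pyy alone and at 5586 and 5330 CPM in cells with Sst. Pcsk2, the convertase that cleaves proglucagon to glucagon, stood at 2897 and 2772 CPM, and Pcsk1 at 118 and 125 CPM.

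Ghrl (chr6:113716119-113719880), the gene of ghrelin and the mark of epsilon cells, was low in the Ppy+Pyy-led cells and found mainly in those with Ppy+Pyy alone and with Gcg. Only 1 of 407 WT cells (0.246%, 0.006 to 1.36) had 1% or more of its UMIs in Ghrl, with 569 of 26432 UMIs (2.15%). Of the 430 Npc1-/- cells, 0 reached 1%, which allows a share of up to 0.698% by the limit of 3 counts and of up to 0.854% by the exact interval, and the highest cell had 190 Ghrl UMIs (0.550%). A comparison of genes between Ghrl-rich and other cells at this limit could therefore not be made. At a limit of 0.1%, chosen after seeing these values, 50 WT cells (12.3%, 9.26 to 15.9) and 25 Npc1-/- cells (5.81%, 3.8 to 8.46) held Ghrl. Most were cells with Ppy+Pyy alone, 41 of 184 in WT (22.3%, 16.5 to 29.0) and 18 of 136 in Npc1-/- (13.2%, 8.04 to 20.1), and the cells with Gcg followed with 8 of 45 and 4 of 53. The cells with Sst gave 0 of 144 and 1 of 161, and the cells with Iapp 1 of 34 and 2 of 80. In Gcg-led cells the share was 7.55% in WT and 5.15% in Npc1-/-.

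Of cells with Ppy+Pyy alone, 56.0% (WT) and 53.7% (Npc1-/-) had a Ghrl UMI, as did 35.6% and 33.0% of all selected cells and 1.83% and 4.67% of the endothelial cells, whose median depth was 7871 and 10331 UMIs against 21074 and 22083 in cells with Ppy+Pyy alone. After thinning to 5000 UMIs, 48.4% and 42.1% of cells with Ppy+Pyy alone still had one. In Gcg-led cells 39.5% and 40.7% had a Ghrl UMI. The shares were 6.25% and 9.94% in the cells with Sst, 7.94% and 4.26% in Sst-led and 4.15% and 6.52% in Ins-led cells. At 5000 UMIs, Npc1-/- cells with Sst had one in 5.13% (2.24 to 9.85) and Npc1-/- Sst-led cells in 0% (0 to 2.62). The Ghrl level summed over cells with Ppy+Pyy alone was 760 CPM of all UMIs in WT and 410 CPM in Npc1-/-, a log2 ratio of -0.89 (-0.99 to -0.80). There 1 WT cell held 569 of the 3061 UMIs, and without the top cell of each library the levels were 623 and 352 CPM of all UMIs. Ghrl was lower in Npc1-/- by this measure also in the cells with Gcg (727 and 246 CPM of all UMIs). There 1 WT cell held 208 of the 669 UMIs, and without the top cells the levels were 527 and 226 CPM of all UMIs. In the cells with Sst, Ghrl was at 11.8 and 45.4 CPM of all UMIs (log2 ratio 1.93, 1.35 to 2.59), but 1 Npc1-/- cell held 54 of the 136 UMIs, and without the top cell of each library the levels were 8.05 and 27.8 CPM of all UMIs. Endothelial cells, as a measure of free RNA, had 1.77 and 3.90 CPM of all UMIs. In the cells with Iapp the values were 134 and 137 CPM of all UMIs, but 1 WT cell held 87 of the 95 UMIs, and without the top cell of each library they were 11.7 and 101 CPM of all UMIs. The other epsilon cell markers were not high in these cells. Mboat4, the enzyme that acylates ghrelin, stood at 1.43 and 2.47 CPM in cells with Ppy+Pyy alone, and Oprk1, Asgr1 and Spink1 were at 0 there in both libraries.

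**Figure D4:**
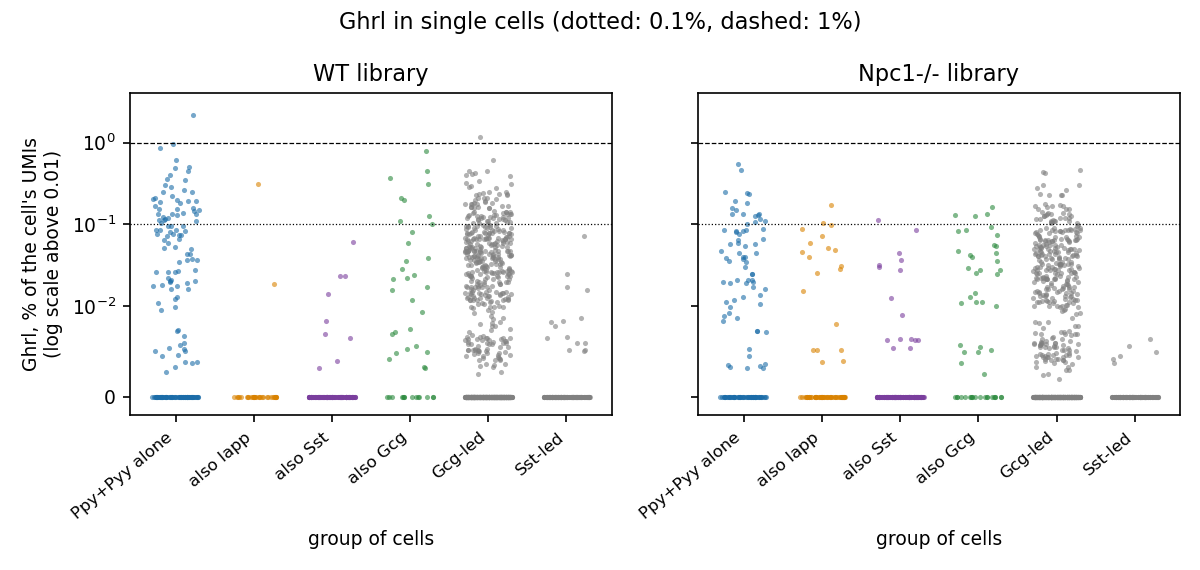
Each point is 1 cell, with its Ghrl share of UMIs in % on the y axis, by group and library; the dotted line marks 0.1% and the dashed line 1%. In the cells with Ppy+Pyy alone 1 WT cell passes 1%, and 41 WT and 18 Npc1-/- cells pass 0.1%.

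Among cells with Ppy+Pyy alone, those with Ghrl at 0.1% or more (41 in WT, 18 in Npc1-/-) were set beside those with no Ghrl UMI (81 and 63). Of 3488 genes, 21 (0.602%) were more than 2-fold higher with Ghrl in both libraries and 10 (0.287%) more than 2-fold lower. Of 9 tested genes of the cell cycle list, 5 were higher and 0 lower. These rested on few cells, since 5 WT and 2 Npc1-/- cells with Ghrl had 50 or more UMIs of the list, against 4 and 1 of those with no Ghrl. The 5 WT cells held 84 of the 86 Top2a UMIs of the WT cells with Ghrl, and the 2 Npc1-/- cells all 34. Among the higher genes were Top2a (topoisomerase II, 187 against 58.9 CPM and 141 against 15.3 CPM) and Hmgb2, a chromatin protein (536 against 192 CPM and 437 against 129 CPM). Cdca8, Cks2, Nusap1, Cdca3 and Pbk, all genes of mitosis, were in the same list. Rmst, a long noncoding RNA, and Agt (angiotensinogen, 65.4 against 25.1 CPM and 74.9 against 13.9 CPM) were higher as well. Meg3, an imprinted noncoding RNA of endocrine cells, was lower, at 686 against 1494 CPM in WT and 474 against 1330 CPM in Npc1-/-, as were Slc30a8 (41.4 against 124 CPM and 16.6 against 76.3 CPM) and Ramp1, a partner protein of the calcitonin receptor family (50.1 against 125 CPM and 49.9 against 158 CPM).

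Dividing cells were present in each group. The 20 genes of the cell cycle list together reached 50 UMIs in 24 WT cells (5.90%, 3.81 to 8.65) and 15 Npc1-/- cells (3.49%, 1.97 to 5.69), and the intervals overlapped. At 5000 UMIs per cell, 24 (6.0%) and 16 cells (3.83%) had 10 or more UMIs of the list. In WT and Npc1-/-, 6 and 4 cells with Sst, 4 and 2 with Gcg and 1 and 4 with Iapp reached 50 UMIs. Of cells with Ppy+Pyy alone, 13 in WT (7.07%, 3.82 to 11.8) and 5 in Npc1-/- (3.68%, 1.2 to 8.37) reached 50 UMIs, against 6.98% and 8.42% of Gcg-led, 1.06% and 2.13% of Sst-led and 4.20% and 3.23% of Ins-led cells.

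The WT and Npc1-/- libraries were compared within the Ppy+Pyy-led cells, where genotype, mice and handling cannot be told apart. Npc1 itself gave 77 UMIs in WT and 38 in Npc1-/- (16.6 and 7.04 CPM), a log2 ratio of -1.23 (-1.84 to -0.67), with -0.73 (-1.12 to -0.36) in Gcg-led, -0.93 (-2.03 to 0.04) in Sst-led and -1.24 (-1.54 to -0.96) in Ins-led cells. Within the selected cells it was -1.37 (-2.34 to -0.55) with Ppy+Pyy alone, while the intervals included 0 with Sst (-0.41, -1.62 to 0.78), with Gcg (-1.45, -3.70 to 0.30) and with Iapp (-0.55, -2.67 to 2.19, from 3 WT UMIs). Where in the gene the remaining Npc1-/- UMIs lie was not tested. Of 7245 genes with 20 CPM or more in either library, 6 (0.0828%) were more than 2-fold higher in Npc1-/- and 33 (0.455%) more than 2-fold lower. Most genes lay close to 0, with the 5th and 95th percentile at -0.36 and 0.35 on the log2 scale. Within cells with Ppy+Pyy alone, 25 of 7144 genes (0.35%) were 2-fold higher and 55 (0.77%) 2-fold lower, and within cells with Sst 19 (0.254%) and 42 (0.562%) of 7475.

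Among the genes more than 2-fold higher in Npc1-/- were Mt1, Mgp, Rgs5, Soat1 and Uap1l1. Mt1, a metal-binding protein, was at 115 and 263 CPM in the WT and the Npc1-/- library (log2 ratio 1.18, 1.04 to 1.33), and the ratio was 1.30 in cells with Ppy+Pyy alone, 1.02 with Iapp, 1.30 with Sst and 0.22 with Gcg. It was 1.19 in Sst-led cells, but 0.24 in Gcg-led and 0.11 in Ins-led cells. The difference between these classes was not tested. Of the other genes named for their ratios here, Mt2, Chga, Hmgcs1, Ramp1, Gstp1 and Tmsb15b2 did not reach 2-fold. Mt2, the neighbour of Mt1 on chromosome 8, was at 34.4 and 66.3 CPM (0.93, 0.66 to 1.21). Chga, which takes part in granule formation, was at 4753 and 8185 CPM (0.77, 0.75 to 0.80), higher in each group by 0.39 to 0.73 and in the other classes by 0.34 to 0.61. The cells with Iapp, a larger share in Npc1-/-, had the highest Chga level of the 4 groups (10703 and 16247 CPM), and the ratio over all selected cells was above that within each group. Hmgcs1, an early enzyme of cholesterol synthesis, was at 41.1 and 70.6 CPM (0.77, 0.52 to 1.03). The log2 ratios of Ramp1, Gstp1, a glutathione transferase, and Tmsb15b2 were 0.66, 0.78 and 0.76. Mgp, a matrix protein, was higher by 1.74, but 5 cells held 82.4% of its UMIs in WT and 93.8% in Npc1-/-, and Soat1, which esterifies cholesterol, passed 2-fold with 1.07.

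Among the 33 genes that were lower, 8 were of the list of early response and heat shock genes and 4 of the cell cycle list. Hspa1a, an inducible chaperone, was at 379 and 117 CPM in the WT and the Npc1-/- library (log2 ratio -1.70, -1.84 to -1.57), and Dnajb1, its co-chaperone, at 192 and 60.2 CPM (-1.68). Fos (chr12:85473890-85477273), a subunit of the AP-1 factor, was at 825 and 362 CPM (-1.20, -1.28 to -1.12), Fosb at 237 and 111 CPM (-1.11) and Dusp1, a phosphatase of MAP kinases, at 123 and 43.2 CPM (-1.52). The same 5 genes were lower in Gcg-led cells by 1.17 to 1.86 and in Ins-led cells by 1.61 to 2.29. They were lower in Sst-led cells by 1.19 to 1.81, apart from Dusp1 with -0.19 (-0.69 to 0.30). Gm47283, annotated on chromosome Y although the mice were female, was at 80.6 and 21.5 CPM (-1.91), and Rnf138rt1, a retrocopy of a ubiquitin ligase gene, at 104 and 49.6 CPM (-1.08), and the reads of both may come from near-identical copies. Apoe, an apolipoprotein, was lower by 1.57, but 1 WT cell held 68.5% of its WT UMIs. Krtap17-1, a keratin-associated protein gene, was at 56.8 and 20.4 CPM (-1.48, -1.82 to -1.16), with -2.18 in cells with Ppy+Pyy alone and 1.12 with Sst. Of its UMIs, 5 cells held 34.5% in WT and 49.1% in Npc1-/-, a spread between cells that the interval does not cover.

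The PP cell markers that the selection did not use were lower in Npc1-/- on the log2 scale, Tspan8 by 0.31, Folr1 by 0.29 and Gc by 0.53, and 0 of the 3 passed 2-fold. Within cells with Ppy+Pyy alone they were lower by 0.24 for Tspan8, 0.44 for Folr1 and 0.25 for Gc. In the cells with Iapp the log2 ratios were -0.34, -0.51 and -0.84 in the same order, and in the cells with Gcg -0.48, -0.81 and -0.58. In the cells with Sst the log2 ratio was -0.07 (-0.16 to 0.01) for Tspan8, 0.09 (-0.08 to 0.27) for Folr1 and 0.01 (-0.28 to 0.30) for Gc, and all 3 intervals included 0. Of the genes that the selection used, Ppy made up 17.9% of WT and 16% of Npc1-/- UMIs and Pyy 17.7% and 16.2%. Sst made up 3.17% and 3.66% and Gcg 1.12% and 1.60%. Ins1 was at 0.267% and 0.257% and Ins2 at 0.765% and 0.595%, next to 0.383% and 0.217% and 1.19% and 0.657% in endothelial cells. On all UMIs, the log2 ratios of Ins1 and Ins2 were -0.55 and -0.72 with Ppy+Pyy alone and -0.67 and -0.93 with Sst. They were -0.05 and -0.16 with Gcg and 0.84 and 0.57 with Iapp. Iapp, which the selection did not use, made up 1.10% and 1.80%.

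**Figure D5:**
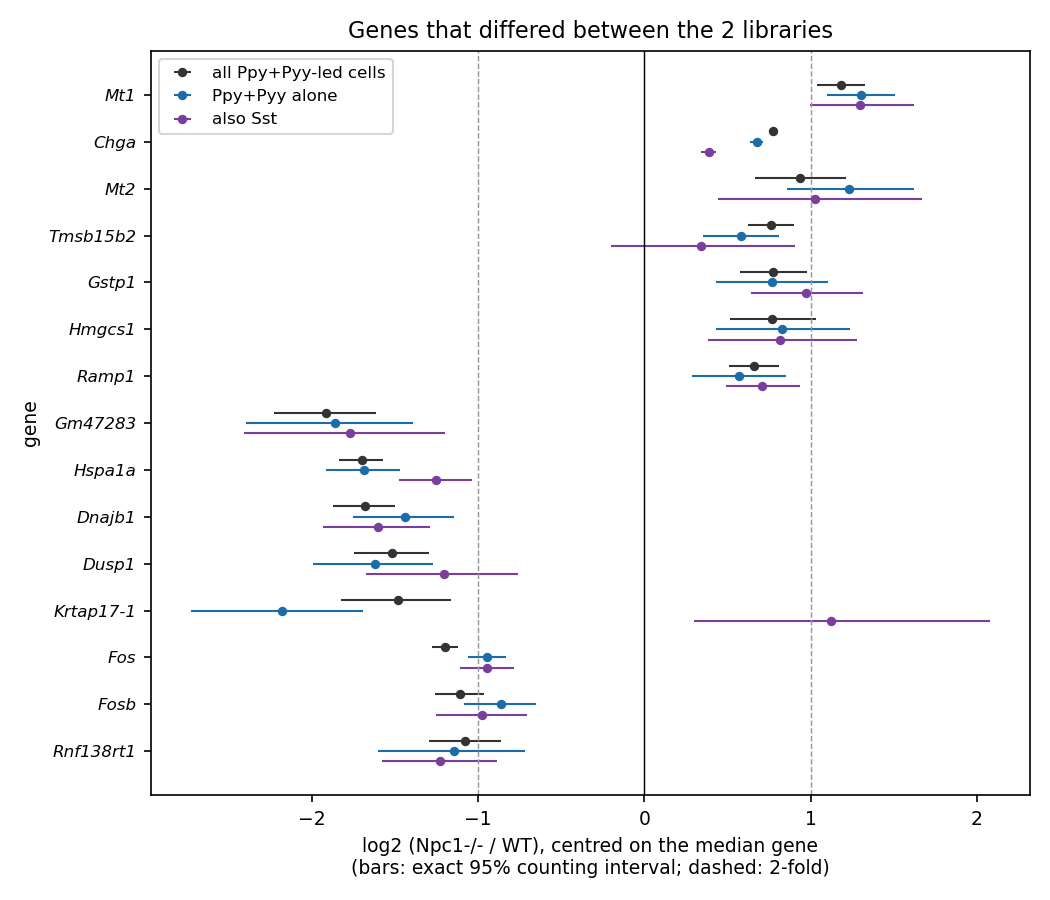
Points give the log2 ratio of Npc1-/- over WT for the named genes in all Ppy+Pyy-led cells, in cells with Ppy+Pyy alone and in cells with Sst, centred on the median gene, with exact 95% intervals for counting error. Mt1 and Hmgcs1 lie right of 0 and the early response and heat shock genes left of 0 in all 3.

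Of the gene lists with 5 or more genes tested, those of the dissociation response, the cell cycle and cholesterol synthesis had the medians furthest from the median gene. Of 17 tested cholesterol genes, 16 were above the median gene in Npc1-/-, with a median log2 ratio of 0.41 against 0 for all genes, and 0 passed 2-fold. Insig1, which retains the sterol sensor in the ER, was at 21.1 and 38.3 CPM in the WT and the Npc1-/- library (0.85, 0.50 to 1.22), Srebf2, the master factor of the pathway, at 36.3 and 59.8 CPM (0.71, 0.44 to 0.99) and Fdps at 75.3 and 110 CPM (0.54). Pmvk was the exception with -0.11. The median of the list was 0.41 in cells with Ppy+Pyy alone, 0.33 with Iapp, 0.45 with Sst and 0.83 with Gcg, and 0.39 in Gcg-led, 0.50 in Sst-led and 0.30 in Ins-led cells.

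All 17 tested genes of the dissociation response, which are known to be induced when tissue is digested into cells, were below the median gene, 8 of them by more than 2-fold, with a median of -0.91. Jun stood at 1083 and 602 CPM in the WT and the Npc1-/- library (-0.86), Btg2 at 741 and 443 CPM (-0.75) and Egr1 at 532 and 323 CPM (-0.73). The median was -0.81 in cells with Ppy+Pyy alone and -1.08 in Gcg-led, -0.77 in Sst-led and -1.55 in Ins-led cells, so these 4 classes had the same direction. As each genotype was dissociated and loaded as 1 sample, genotype and handling cannot be told apart for these genes. Of 20 cell cycle genes, 18 were below the median gene, 4 of them by more than 2-fold (Ccnb2 -1.29, Cdc20 -1.05, Rrm2 -1.02 and Birc5 -1.01), with a median of -0.59 that was -0.82 in cells with Ppy+Pyy alone, -1.25 with Gcg, -0.28 with Sst and 0.98 with Iapp. It was 0.10 in Gcg-led, -0.14 in Sst-led and -0.40 in Ins-led cells. Few cells carry these genes, as the counts of dividing cells above show.

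The lists of organelles and of endocrine function had 0 genes past 2-fold, next to 0.0828% higher and 0.455% lower over all genes, so that few or no calls would be found in lists of this size at the share of all genes. Of 34 lysosomal genes, 22 were above and 12 below it with a median of 0.07, for example Ctsl, a cathepsin, at 442 and 521 CPM (0.23, 0.14 to 0.31), Ctsz at 290 and 225 CPM (-0.38, -0.49 to -0.26) and Npc2, the partner of NPC1 in cholesterol export, at 358 and 389 CPM (0.11, 0.02 to 0.21). Nuclear subunits of oxidative phosphorylation (74 genes) had a median of 0.06, and the 13 genes encoded by mitochondria, all above the median gene, one of 0.09. Of 22 ER folding genes, 17 were below it (median -0.09; Hspa5 1029 and 894 CPM), and of 11 genes of the integrated stress response 8 (median -0.14). The 17 mitophagy genes (median -0.00), 22 transcription factors (0.10), 13 granins and processing enzymes (0.02), 25 genes of exocytosis and excitability (0.02) and 7 receptors (-0.03) were spread on both sides. The glucose response genes (4 tested, median 0.32), beta cell (5, 0.22), alpha cell (9, 0.11), delta cell (6, -0.09) and epsilon cell markers (3, 0.20) and the further PP cell genes (5, 0.12) had 0 genes past 2-fold, and the same held for the single peptide gene tested (-0.30).

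Markers of other cell types were also summed in the Ppy+Pyy-led cells. The 6 endothelial genes summed to 81.7 and 55.6 CPM in the WT and the Npc1-/- library, led by Esm1 (22.6 CPM) and Plvap (13.5 CPM), and 2 and 4 cells had 10 or more of their UMIs. They summed to 176 and 108 CPM in the cells with Sst, 45.7 and 40.1 CPM with Ppy+Pyy alone, 0 and 14.8 CPM with Iapp and 3.66 and 5.66 CPM with Gcg. The 13 acinar genes summed to 116 and 147 CPM, and Amy2a5 was at 0 in both libraries. The 8 duct genes summed to 447 and 424 CPM, mostly Krt7 with 312 and 315 CPM, next to 323 and 343 CPM for the list in Gcg-led, 399 and 405 CPM in Sst-led and 403 and 378 CPM in Ins-led cells, and 9.72 and 4.84 CPM in endothelial cells. The 5 macrophage genes summed to 112 and 123 CPM, almost all from C1qa, while C1qb was at 0 in Npc1-/-. Stellate cell genes (6) summed to 28.8 and 59.8 CPM, led by Rgs5, which was the one gene of the list tested and was higher in Npc1-/- by 1.52 on the log2 scale. In the cells with Sst they summed to 5.61 and 93.5 CPM, with 4.35 for Rgs5, where Mgp was at 0.623 CPM (1 UMI) and 87.5 CPM, and in cells with Ppy+Pyy alone to 49.5 and 74.7 CPM. Schwann cell genes (4) to 34.6 and 26.1 CPM, and T cell and neutrophil genes (5) to 3.66 and 0 CPM. The 5 B cell genes summed to 30.5 and 9.63 CPM, but to 233 CPM in the 34 WT cells with Iapp, with Igkc at 123 CPM. Few cells carried such UMIs. Over all WT Ppy+Pyy-led cells, 4 cells had Ighm, an immunoglobulin gene, and 1 cell held 18 of its 23 UMIs. Over all Ppy+Pyy-led cells, between 0 and 2 genes of each of these lists could be tested between the libraries, except for 3 duct genes. Within groups, 5 B cell genes were tested with Iapp (median log2 ratio -5.53) and 4 endothelial genes with Sst (median -0.76). The part of these cell types in the differences between the libraries was not tested.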

How the data were processed

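Islet cells of 1 WT and 1 Npc1-/- library (each from 3 pooled female mice) were read as droplet data. The deposited matrices hold UMI counts as whole numbers, which the authors had neither normalized nor cut by the study's limits. The submitters' processing notes name Cell Ranger 3.1.0, Seurat 4.0.3 and mm10. The labels name version 3 of the kit. The members and gene lists were chosen with earlier results of these data known.

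Cells were kept and selected by the limits given in the report. Counts were summed per class and library and expressed as CPM of the UMIs outside 8 hormone genes, since Ppy and Pyy alone took up to 63.2% of a cell's UMIs. Ratios had 0.5 counts added, needed 20 CPM or more in either group, were centred on the median gene, and were called past 2-fold. With 1 library per genotype no test was made. Shares have exact Clopper-Pearson and ratios exact conditional binomial 95% intervals, which cover counting error only. Free RNA was not removed. Shares of cells with a UMI were thinned to 5000 UMIs. Doublets were scored with Scrublet but kept (its own threshold marked 1.40% and 0.937% of cells), and their removal at 0.8% per 1000 barcodes is an alternative.

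Named were the hormones, Npc1 and fixed markers; among genes with 50 CPM or more, the 15 highest and 10 lowest against the other classes; the 10 furthest from 0 in each direction between libraries by the interval bound nearest 0, in the same direction under every scaling and membership alternative; and members of the lists. The groups by other hormones, their 10 leading genes in each direction, the 20 leading genes of cells with Ppy+Pyy alone and the genes of the Ghrl comparison were chosen after seeing the data. Soat1 was named after its value was seen. The steps were tested on simulated data. R 4.3.3 with edgeR 4.0.16 (TMM factors only) and scanpy 1.11.5, matplotlib 3.10.9, pandas 2.3.3, scipy 1.17.1 and numpy 2.4.6 under Python 3.11.15 were used. Promoters are from RefSeq (GRCm38.p6). Some genes that met these rules are not reported here.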

Additional observations from a re-analysis of the deposited data

Results flagged for a closer look

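A single Npc1-/- cell that none of the 4 hormone classes held had 43.9% of its UMIs in Ghrl (10185 of 23199 UMIs), against at most 2.15% in a Ppy+Pyy-led cell. Its Ppy and Pyy share was 0.073% and its mitochondrial share 5.74%. It stood out as a signal in cells outside the comparisons, far above the Ghrl share of any other kept cell, and no WT cell like it was found.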

How the results depend on the processing

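No paired analysis was possible because each genotype had 1 library, and for the same reason no library could be left out in turn. Single genes and lists were compared under the alternative filters, limits and scalings. Of their values, 345 moved by less than their counting interval or list spread and 29 by more. The main results, which are shares of cells and numbers of genes, depended more on these choices, as 26 values moved and 48 did not. Under alternatives added after seeing the data, 6 of the main values moved and 4 did not. Stricter limits of more than 2000 genes and under 5% mitochondrial UMIs gave a share of Ppy+Pyy-led cells of 11% in WT and 11.4% in Npc1-/-, Ppy+Pyy at 20% or more gave 5.96% and 6.86%, and Gcg and Sst each under 5% gave 5.47% and 5.58%. The share of Ghrl-rich cells in WT was 0 at a limit of 5%, and at 0.1% it was 12.3% in WT and 5.81% in Npc1-/-. The number of genes above every other class, 1 in the report, was 3 with the stricter limits, 2 with cells of any UMI number, 6 with Ppy+Pyy at 20%, 6 with Gcg and Sst under 5%, 10 with a floor of 5 CPM, 5 at 1.5-fold, 0 at 3-fold and 20 for cells with Ppy+Pyy alone. Genes higher in Npc1-/-, 6 in the report, numbered 15 with Ppy+Pyy at 20%, 18 with Gcg and Sst under 5%, 3 with a floor of 50 CPM, 69 with 5 CPM, 52 at 1.5-fold, 1 at 3-fold, 25 within cells with Ppy+Pyy alone and 19 within cells with Sst. Genes lower in Npc1-/-, 33 in the report, numbered 17 with CPM of all UMIs and 19 with TMM factors (5135 and 4995 genes tested in place of 7245), 13 with a floor of 50 CPM, 100 with 5 CPM, 106 at 1.5-fold, 6 at 3-fold and 55 within cells with Ppy+Pyy alone. A lower floor tests more genes of few UMIs, and for the other alternatives the cause was not tested. Of the single-gene values within groups, alternatives added after seeing the data, 25 moved by less than their interval, 35 by more and 4 reversed. Within groups, the log2 ratio of Mt2 was -0.18 with Gcg, of Apoe 0.30 with Sst and 0.74 with Gcg, and of Krtap17-1 1.12 with Sst, each opposite to that of all Ppy+Pyy-led cells. Ratios with 3 or fewer UMIs in either library were left out of these counts. With a single library per genotype, spread between mice, handling and genotype cannot be told apart.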
